A study of Mus musculus with 4 samples.

Results

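The 8 genes *Dsp*, *Pkp2*, *Dsg2*, *Dsc2*, *Jup*, *Cdh2*, *Ctnna3* and *Vcl*, which encode proteins of the desmosome and the intercalated disc, were taken by name from the GENCODE annotation of mm10, and all 8 were found among 21728 protein-coding genes. Their open chromatin was read from ATAC-Seq peaks of sorted mouse heart nuclei. ATAC-Seq inserts sequencing adapters with the Tn5 transposase wherever DNA is accessible. All mice were males of 8 to 12 weeks on a C57BL/6 background, and all carried the *Cdh5*-Cre transgene and the NuTRAP reporter, which switches on GFP in cells where Cre has acted. Nuclei came from whole hearts, with 100 to 50000 nuclei in a reaction. The 2 GFP+ (EC) libraries hold nuclei of cells of endothelial descent, as the *Cdh5* promoter defines it, and the 2 GFP- (non-EC) libraries hold all other nuclei of the gate, a mixture of cardiomyocytes, fibroblasts and further cell types. The sort kept DAPI-stained nuclei of 2n DNA content. Each population has 1 list of peaks, called from both replicates together, so no difference between the populations has a replicate check and no p-value is given. A weaker peak can come from fewer open nuclei or from less accessible DNA in each nucleus, which cannot be told apart.

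In all, 99 of 78912 GFP- peaks and 75 of 65008 GFP+ peaks lay at the members. Within its own list, every peak received a percentile rank according to area, the caller's summed signal over the peak, from 0 for the smallest peak to 100 for the largest. A start peak reaches within 250 bp of the 5′ end of a gene's record, on either side. The body is the gene without its first 1000 bp, and the upstream stretch runs 50 kb before the start. A peak is called shared when it overlaps a peak of the other list by at least 1 bp. The genes ranged from 28806 bp (*Jup*, chr11:100368958-100397763, minus strand) to 1573570 bp (*Ctnna3*, chr10:63430098-65003667, plus strand). *Dsp* lies at chr13:38151294-38198577, *Pkp2* at chr16:16213318-16272712 and *Vcl* at chr14:20929398-21033676, all on the plus strand. The 3 cadherin genes share chromosome 18, with *Dsg2* at 20558074 to 20604521 on the plus strand, and *Dsc2* (20030633 to 20059554) and *Cdh2* (16588877 to 16809246) on the minus strand.

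Desmosomes tie the intermediate filaments of neighboring cells together and carry the mechanical load of contraction at the intercalated disc, where cardiomyocytes meet end to end. The desmosomal cadherins cross the gap between cells, armadillo proteins bind the cadherin tails, and desmoplakin joins them to desmin filaments. In the heart these proteins mix with adherens junction proteins, which hold the actin of the myofibrils, and mutations in several of the genes cause arrhythmogenic cardiomyopathy. Most endothelial cells build no classical desmosomes and adhere through VE-cadherin, the product of *Cdh5*, although plakoglobin, N-cadherin and vinculin are known there too.

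The DNA just before the starts is shown first because a peak covered it in both lists for all 8 genes. The 150 bases before the start are given 5′ to 3′ on the strand of each gene, from the RefSeq copy of GRCm38.p6 (mm10), for *Dsp*, *Jup*, *Ctnna3* and *Vcl*. Capitals mark matches, on either strand, to 8 short words, which are the MEF2 word TAAAAATA, the GATA word AGATAA, the ETS word AGGAAGT, the TEAD word GGAATG, the E-box CAGCTG, the AP-1 word TGANTCA, the GC box GGGCGG and the SOX word CCATTGT.
Dsp, chr13:38151144-38151293, plus strand: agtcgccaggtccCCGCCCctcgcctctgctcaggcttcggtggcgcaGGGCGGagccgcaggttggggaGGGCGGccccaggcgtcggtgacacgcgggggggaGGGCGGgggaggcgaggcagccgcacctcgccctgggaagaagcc
Jup, chr11:100397764-100397913, minus strand: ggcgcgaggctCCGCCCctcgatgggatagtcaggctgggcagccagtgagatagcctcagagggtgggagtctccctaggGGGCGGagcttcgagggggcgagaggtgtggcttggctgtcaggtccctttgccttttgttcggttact
Ctnna3, chr10:63429948-63430097, plus strand: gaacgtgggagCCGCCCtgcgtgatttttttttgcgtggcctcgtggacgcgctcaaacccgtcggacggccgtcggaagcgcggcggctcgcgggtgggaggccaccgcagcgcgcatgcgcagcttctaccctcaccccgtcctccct
Vcl, chr14:20929248-20929397, plus strand: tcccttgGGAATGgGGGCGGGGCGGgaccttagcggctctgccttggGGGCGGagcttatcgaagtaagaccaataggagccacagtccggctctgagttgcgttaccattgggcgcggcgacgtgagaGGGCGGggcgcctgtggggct
The words in capitals are GC boxes, except for 1 TEAD word near the 5′ end of the *Vcl* stretch. The *Dsp* stretch held 4 matches to the GC box and the *Ctnna3* stretch held 1. The GC content of the 4 stretches ran from 64% in *Jup* to 77.3% in *Dsp*. The *Dsp* stretch overlaps an exon of *Gm10129*, an unverified transcript on the other strand.

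Over the 250 bp before the start, the GC box was found in 8 of 8 members, in 39.3% of 21721 promoters of protein-coding genes, and in 58.8% of the 11682 promoters with a start peak in both lists. The median GC content was 67.4% for the members, 54% for all promoters and 59.6% for promoters with a start peak in both lists. *Cdh2* had the highest GC content (79.6%) and *Dsc2* the lowest (58.4%). CpG dinucleotides were as frequent as 1.26 times the number expected from base composition in *Ctnna3* and as rare as 0.240 times in *Dsc2*, around a median of 0.490 over all promoters. The TEAD word occurred in the 250 bp of *Dsg2* and *Vcl* and the E-box in those of 2 members, among them *Dsc2*. None of the 8 stretches held the MEF2, GATA, ETS, AP-1 or SOX word as spelled here, which says nothing about the factors themselves.

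All 8 members had a start peak in the GFP- list, where 56.9% of protein-coding genes had one, and all 8 in the GFP+ list, where 54.8% had one. For all genes the share with a start peak in both lists was 53.8%. The start ranks of the members ran from 79.5 to 99.6 in GFP- nuclei, with a median of 95.9, and from 81.5 to 99.8 in GFP+ nuclei, with a median of 94.8. Over all genes with a start peak the median rank was 90.5 in GFP- and 89.3 in GFP+. The rank difference, GFP+ minus GFP-, had a median of 0.39 points over the members (SD over genes 1.37, n = 8 genes) and ran from -2.64 to 2.0, with 5 members higher and 3 lower in GFP+. Ranked by the summit -log10 p or by area per bp, 4 were higher and 4 lower. All 8 differences lay within 5 points. So did those of 75.5% of the 12577 genes with a start peak in either list, whose median difference was -0.83. That share counts genes with a start peak in 1 list, at rank 0 in the other, and is not matched for rank. Over start regions found in both lists the share was 78.9%. Near the top of a list, unlike areas can have close ranks, as for *Cdh2*, with areas of 8263 in GFP- and 5607 in GFP+.

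**Figure D1:**
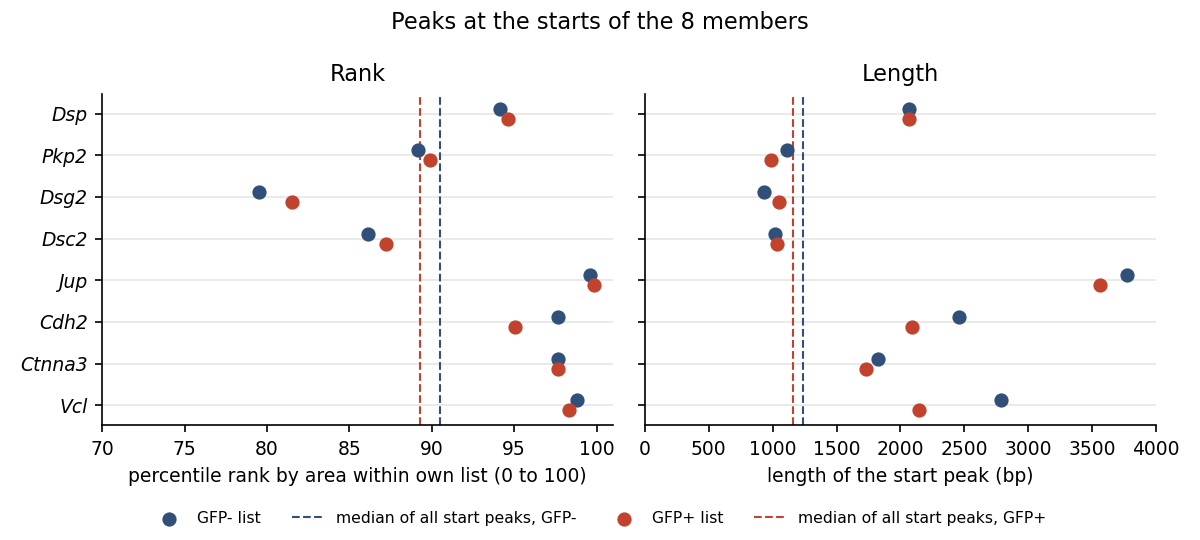
Start peaks of the 8 members, with the percentile rank by area in the own list on the left (axis from 70) and the peak length in bp on the right. Blue points are the GFP- list, red points the GFP+ list, and dashed lines the medians over all genes with a start peak in that list; *Dsg2* had the lowest ranks (79.5 and 81.5) and *Jup* the highest (99.6 and 99.8).

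The desmosomal cadherins had the smallest start peaks of the group by area. *Dsg2*, which encodes desmoglein-2, had a GFP- peak of 932 bp at rank 79.5 (area 2177) and a GFP+ peak of 1050 bp at rank 81.5 (area 2294). *Dsc2*, which encodes its partner desmocollin-2, had peaks of 1016 bp at rank 86.1 in GFP- and 1035 bp at rank 87.2 in GFP+. Both genes stood below the median start rank of all genes in both lists, and both ranked slightly higher in GFP+ nuclei by area. The direction turned for *Dsc2* when ranked by the summit -log10 p (-2.98 points) and for *Dsg2* when ranked by area per bp (-1.99). *Cdh2*, which encodes N-cadherin, the classical cadherin of the disc, had a longer start peak, of 2458 bp at rank 97.7 (area 8263) in GFP- and of 2093 bp at rank 95 (area 5607) in GFP+. Its difference of -2.64 points was the most negative of the 8. The summit of the *Cdh2* start peak lay 147 bp before the start in GFP- and 708 bp after it in GFP+, whereas the summits of *Jup* and *Vcl* differed by 0 and 7 bp between the lists.

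The armadillo proteins bind the cadherin tails. *Jup*, which encodes plakoglobin, had the strongest start peak of the group, 3771 bp long at rank 99.6 in GFP- and 3560 bp long at rank 99.8 in GFP+. By area it stood at position 333 of the GFP- list and position 117 of the GFP+ list. *Pkp2*, which encodes plakophilin-2, had peaks of 1115 bp at rank 89.2 and of 985 bp at rank 89.9, close to the median of all start peaks. *Dsp*, which encodes desmoplakin, had start peaks of 2070 bp in both lists, at chr13:38150964-38153033 in GFP- (rank 94.1) and chr13:38150966-38153035 in GFP+ (rank 94.6). This peak also covers the start of *Gm10129*, so the pair of starts cannot be told apart there.

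The actin linkers complete the group. *Ctnna3*, which encodes αT-catenin, a catenin abundant in heart that also binds plakophilin-2, had start peaks of 1826 bp at rank 97.7 in GFP- and 1733 bp at rank 97.6 in GFP+. *Vcl*, which encodes vinculin, had peaks of 2785 bp at rank 98.8 (area 10326) in GFP- and 2147 bp at rank 98.3 (area 8281) in GFP+. The order of start ranks was the same in both lists, from *Jup* and *Vcl* through *Ctnna3*, *Cdh2*, *Dsp* and *Pkp2* to *Dsc2* and *Dsg2*. *Cdh2* and *Ctnna3* both had rank 97.7 in GFP- and had ranks of 95 and 97.6 in GFP+. With 1 list per population, no pair of neighbors in this order can be separated by replicate error.

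In the bodies, GFP- nuclei had 73 peaks and GFP+ nuclei 51. Of the GFP- body peaks 48 were shared (65.8%, Wilson 95% interval 54.3 to 75.6%, which covers counting error only), against 70.2% over the bodies of all protein-coding genes. Of the GFP+ body peaks 50 were shared (98%, 89.7 to 99.7%), against 85.8% over all genes. Genes with a body of at least 50 kb had shares of 66.7% and 84.6%. The GFP- list is the longer one. With the GFP- list limited to as many peaks as the GFP+ list, 75.4% of GFP- and 88.2% of GFP+ body peaks of the members were shared, against 77.6% and 78.0% over all genes. The members' intervals, 62.9 to 84.8% and 76.6 to 94.5%, cover these shares over all genes. *Ctnna3* contributed 12 of the 25 body peaks found in GFP- only, and without it 36 of 49 GFP- peaks (73.5%) and 38 of 38 GFP+ peaks were shared.

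Body peaks found in GFP- only had low ranks, with a median of 24.7 and a maximum of 56.0. All 21 GFP- body peaks at rank 75 or higher were shared, as were 95.3% of such peaks over all genes. Between ranks 50 and 75, 11 of 13 were shared (84.6%, against 80.7%), and below rank 50, 16 of 39 (41.0%, against 53.9%). Of the 27 GFP+ body peaks below rank 50, 26 were shared (96.3%, against 75.7%). These shares rest on the overlap of at least 1 bp, which was as small as 38 bp for a *Cdh2* peak of rank 1.93. When the overlap had to reach 50% of both peaks, 82.4% of the members' GFP+ body peaks were shared, against 71.8% over all genes. The member interval, 69.7 to 90.4%, covers the latter. Shares by rank were not recomputed for that overlap.

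**Figure D2:**
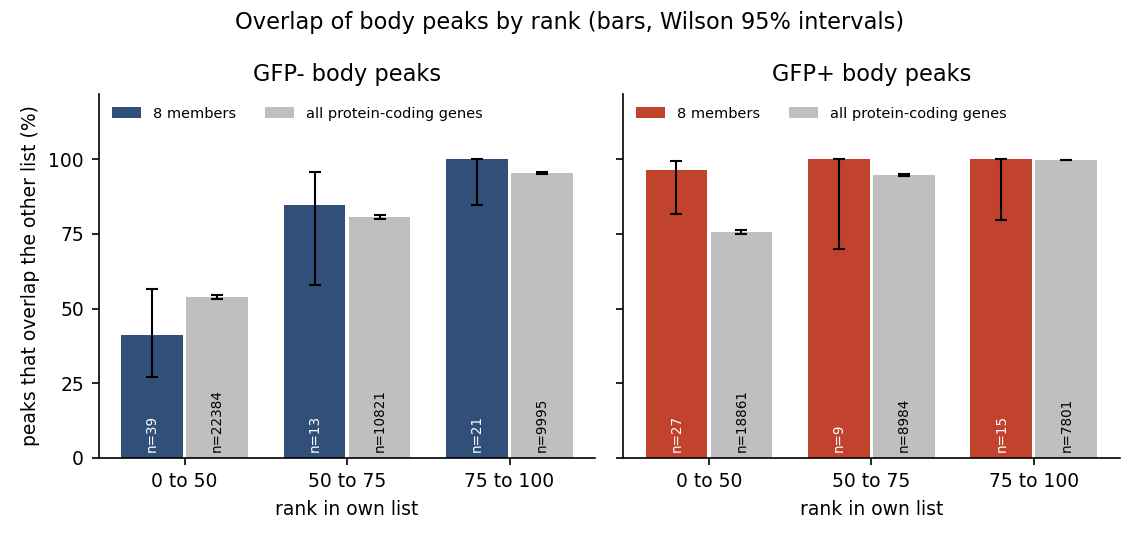
Percent of body peaks that overlap a peak of the other list, by rank in the own list, for the GFP- list (left) and the GFP+ list (right). Colored bars are the 8 members, grey bars all protein-coding genes, and error bars Wilson 95% intervals of counting error; the share of GFP- member peaks was 41.0% below rank 50, 84.6% from 50 to 75 and 100% from 75.

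The share of the body covered by peaks was higher in GFP- for 7 of the 8 members and higher in GFP+ for *Pkp2*. The GFP- list as a whole covers more DNA, 52.1 Mb against 41.8 Mb for GFP+. The share of all genes covered more in GFP- was not computed, so the count is not read as a trait of the members. *Jup* had by far the highest coverage, 33.4% in GFP- and 31.9% in GFP+. *Pkp2* had 7.86% and 8.29%, and *Dsp* 7.24% and 5.85%. *Vcl* had 4.21% and 2.25%, *Cdh2* 4.17% and 3.01%, *Dsc2* 3.94% and 3.20%, and *Dsg2* 2.55% and 2.06%. *Ctnna3* had the lowest coverage, 0.637% and 0.308%. Over all genes the median was 0.247% in GFP- and 0% in GFP+, and over genes with a body of at least 50 kb it was 1.23% and 0.852%. Of the members with a body of at least 50 kb, *Ctnna3* lay below the median of such genes in both lists. *Pkp2*, *Cdh2* and *Vcl* lay above it in both. The bodies of *Dsp*, *Dsg2*, *Dsc2* and *Jup* are shorter, and their coverage was above the median of all genes in both lists. Coverage includes start peaks that reach past the first 1000 bp, as in *Dsp*, *Jup*, *Cdh2* and *Vcl*.

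Overlapping peaks of the lists were merged into regions, outside the starts, to compare ranks place by place. The bodies held 69 such regions, of which 43 were in both lists, 25 in GFP- only and 1 in GFP+ only. Over all genes, 25863 of 43722 body regions were in both lists, 12806 in GFP- only and 5053 in GFP+ only. Among the 43, the median rank difference, GFP+ minus GFP-, was -3.21, against -2.60 over all genes, and 20 lay within 5 points (46.5%, against 37.6%). In GFP+, 8 of the 43 were lower by more than 20 points, where 14.0% of regions over all genes were, and 0 were higher by more than 20 points, where 5.76% were. Of the 8 regions, 5 lay in *Ctnna3*, 2 in *Jup* and 1 in *Vcl*.

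**Figure D3:**
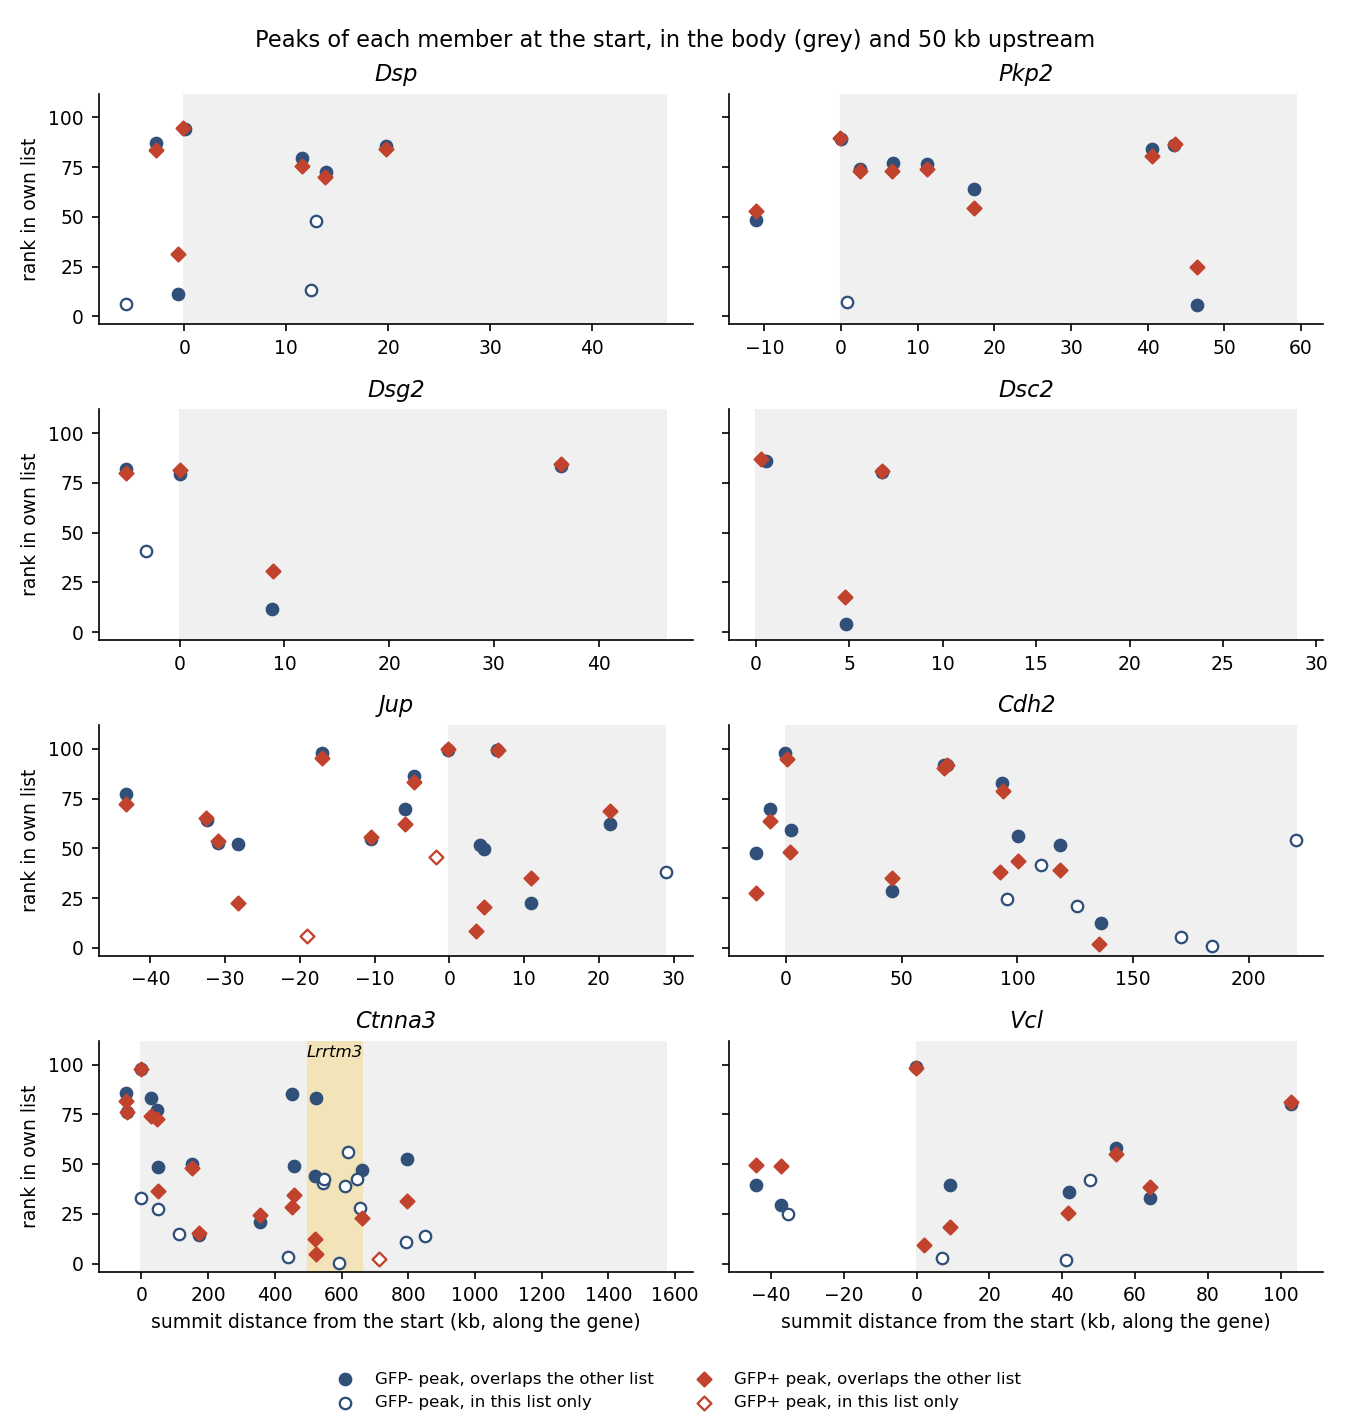
Rank of each peak in its own list (vertical axis, 0 to 100) against the distance of its summit from the start in kb along the gene, for the 8 members. Blue circles are GFP- and red diamonds GFP+ peaks, filled where the peak overlaps the other list and open where it is in 1 list only. Grey marks the gene and yellow, in *Ctnna3*, the gene *Lrrtm3*. There 7 of 10 regions were in GFP- only, beside 12806 of 43722 body regions over all genes.

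Shared intronic peaks of nearly equal rank were found in most members. In *Pkp2*, 7 of 8 body regions were shared, and the highest lay in intron 6, 43498 bp after the start, at rank 86.1 in GFP- and 86.8 in GFP+. A neighbor in the same intron, 40562 bp after the start, had ranks of 84.1 and 80.7, and 3 regions of intron 1 had ranks between 73.3 and 77.3 in the lists. The weakest shared *Pkp2* region, 46409 bp after the start, ranked higher in GFP+ (24.9) than in GFP- (5.85). In *Dsp* the highest body region lay in intron 4, 19761 bp after the start, at ranks 85.4 and 84.1, and intron 1 held a region at ranks 79.5 and 75.4 beside a GFP- peak with no GFP+ counterpart, 12894 bp after the start at rank 47.9.

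*Jup* had the highest ranked body peak of the group. It lay in intron 1, with its GFP- summit 6424 bp after the start, at rank 99.6 in both lists, and was 4148 bp long in GFP- and 3992 bp long in GFP+. Its area was 13772 in GFP-, beside 13735 for the start peak, and 11937 in GFP+, beside 14094 for the start peak. Between this peak and the start lay the regions of *Jup* that were lower in GFP+, 4047 bp after the start (rank 51.5 in GFP-, 8.38 in GFP+) and 4595 bp after it (49.5 and 20.5). A *Jup* region in intron 1, 10897 bp after the start, went the other way, from 22.6 in GFP- to 34.9 in GFP+. It lies at starts of other annotated *Jup* transcripts. A *Jup* region in intron 9, 21476 bp after the start, also rose, from 62.3 in GFP- to 68.8 in GFP+. A peak at the 3′ end of *Jup* (rank 38.2) was in GFP- only.

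In *Dsg2* and *Dsc2*, each of the 2 body regions was in both lists. *Dsg2* had a region in intron 12, 36438 bp after the start, at ranks 83.4 and 84.2, and a weak one in intron 1 that ranked 11.7 in GFP- and 30.7 in GFP+. *Dsc2* had a region in intron 1, 6752 bp after the start, at ranks 80.6 and 80.9, and a weak one in the same intron at 3.92 and 17.6. In the small desmosomal cadherin genes, the weak regions thus ranked higher in GFP+ and the strong ones differed by less than 1 point. *Cdh2* had 13 body regions, 7 in both lists and 6 in GFP- only. Its strongest lay in intron 2, with ranks of 92.0 and 90.2 at 68325 bp after the start and of 91.8 and 92.0 at 69809 bp. The strongest GFP- peak of *Cdh2* without a GFP+ counterpart lay at the 3′ end of the gene, at rank 54.4.

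In *Vcl* the highest body region overlapped the untranslated part of the last exon, exon 21, 102964 bp after the start, at ranks 80.05 and 80.96. The region of intron 4, 54673 bp after the start, had ranks of 58.1 and 54.9. A region of intron 1, 9149 bp after the start, ranked 39.7 in GFP- and 18.4 in GFP+. The 3 *Vcl* body regions found in GFP- only had ranks of 42.0, 2.82 and 1.87.

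*Ctnna3* was the member that differed most between the lists away from its start. It had 24 body peaks in GFP- and 13 in GFP+, and of its 25 body regions 12 were in both lists, 12 in GFP- only and 1 in GFP+ only. The median difference of the 12 regions in both was -13.4 points, against -1.82 for the 31 such regions of the other members. In intron 1, regions 27835 and 46464 bp after the start had ranks of 83.4 and 77.2 in GFP- and of 74.2 and 72.7 in GFP+. The region at 27835 bp lies at the start of another annotated *Ctnna3* transcript. In intron 7, a region 450534 bp after the start ranked 85.1 in GFP- and 28.3 in GFP+, and one 524480 bp after the start ranked 83.4 in GFP- and 4.91 in GFP+, the largest differences among the members (-56.8 and -78.5 points). The highest ranked peak of any member found in 1 list only also lay in this intron, 619308 bp after the start, at rank 56.0 in GFP-.

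Intron 7 of *Ctnna3* contains a further gene on the opposite strand, *Lrrtm3*, which encodes a neuronal transmembrane protein and spans 498374 to 660179 bp after the *Ctnna3* start. Of the 10 body regions within *Lrrtm3*, 7 were in GFP- only and all 3 in both lists were lower in GFP+ by more than 20 points. Over all genes, 12806 of 43722 body regions were in GFP- only. Of the 11 regions before *Lrrtm3*, 8 were in both lists and 1 of them was lower by more than 20 points. Of the 4 regions after *Lrrtm3*, 2 were in GFP- only, 1 was in GFP+ only, and the 1 in both lists was lower by more than 20 points (rank 52.4 in GFP-, 31.4 in GFP+). The start of *Lrrtm3* itself had a peak at rank 47.2 in GFP- and 23.1 in GFP+. Peaks in this stretch belong to *Ctnna3* by position only and could as well be assigned to *Lrrtm3*.

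**Figure D4:**
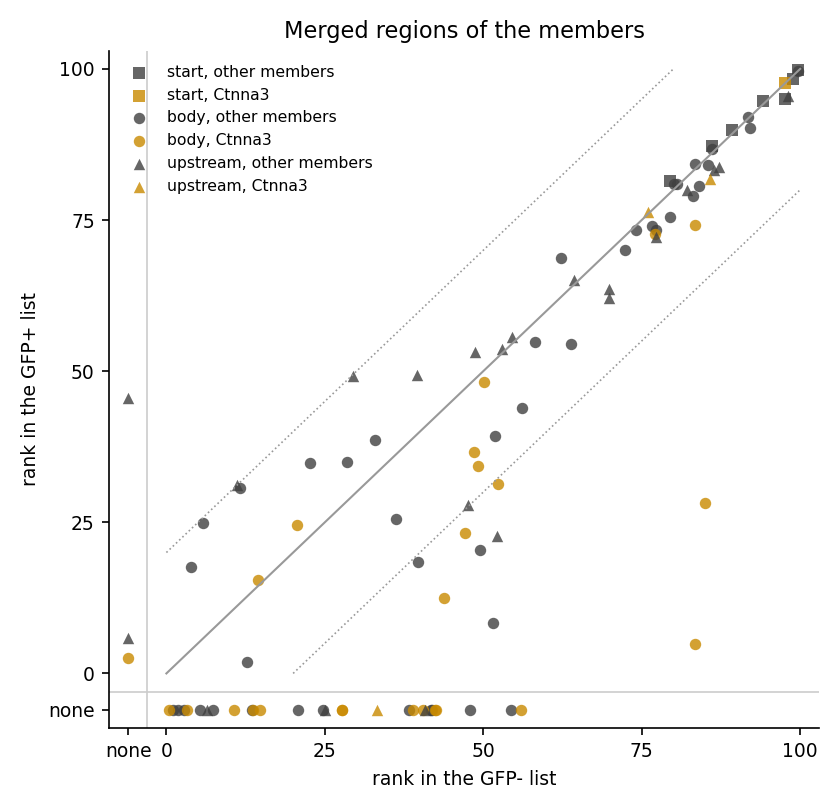
Rank in the GFP+ list against rank in the GFP- list for the merged regions of the members, with regions found in 1 list only on the margins marked none. Squares are starts, circles body and triangles upstream regions, with *Ctnna3* in yellow; the solid line marks equal ranks and the dotted lines differences of 20 points, and the lowest yellow circles at the right are the *Ctnna3* regions at 83.4 and 4.91 and at 85.1 and 28.3.

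The sequences around 5 of these summits are shown for intronic peaks that ranked within 5 points of each other in the lists and for the *Ctnna3* peaks with the largest differences. Each is 200 bases from mm10, given 5′ to 3′ on the strand of the gene, with the same words in capitals. The summits are those of GFP+ for the *Pkp2*, *Jup* and *Ctnna3* intron 1 peaks, each the highest ranked shared GFP+ peak of its gene away from exons and starts, and those of GFP- for the *Ctnna3* intron 7 peaks.
Pkp2 intron 6, chr16:16256750-16256949, plus strand: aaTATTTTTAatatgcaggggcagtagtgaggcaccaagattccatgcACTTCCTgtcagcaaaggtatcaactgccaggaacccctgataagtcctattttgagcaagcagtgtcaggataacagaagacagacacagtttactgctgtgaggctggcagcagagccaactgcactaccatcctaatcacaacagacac
Jup intron 1, chr11:100391164-100391363, minus strand: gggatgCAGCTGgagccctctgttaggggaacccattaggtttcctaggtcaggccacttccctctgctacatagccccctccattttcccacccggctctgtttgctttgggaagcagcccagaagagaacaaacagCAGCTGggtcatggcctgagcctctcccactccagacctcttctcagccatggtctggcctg
Ctnna3 intron 1, chr10:63476470-63476669, plus strand: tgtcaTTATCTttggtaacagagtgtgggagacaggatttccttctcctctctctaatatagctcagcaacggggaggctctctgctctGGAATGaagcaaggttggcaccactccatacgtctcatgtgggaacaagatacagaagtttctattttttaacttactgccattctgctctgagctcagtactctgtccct
Ctnna3 intron 7, chr10:63954478-63954677, plus strand: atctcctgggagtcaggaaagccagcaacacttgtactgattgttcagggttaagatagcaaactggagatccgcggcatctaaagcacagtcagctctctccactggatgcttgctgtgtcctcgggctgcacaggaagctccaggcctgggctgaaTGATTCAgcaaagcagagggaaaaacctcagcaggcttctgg
Ctnna3 intron 7, chr10:63880532-63880731, plus strand: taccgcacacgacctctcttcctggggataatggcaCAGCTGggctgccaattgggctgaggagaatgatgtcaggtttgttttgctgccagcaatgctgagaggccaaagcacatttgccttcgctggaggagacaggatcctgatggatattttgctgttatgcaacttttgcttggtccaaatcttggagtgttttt
The *Pkp2* window held a MEF2 and an ETS word, the *Jup* window 2 E-boxes, and the *Ctnna3* intron 1 window a GATA and a TEAD word. Windows chosen by the same rule in intron 4 of *Dsp* and intron 4 of *Vcl* are not printed. The *Dsp* window held none of the words, and the *Vcl* window held a TEAD word and an E-box. Of the *Ctnna3* intron 7 windows, which ranked far lower in GFP+, the one at 524480 bp held an AP-1 word and the one at 450534 bp an E-box.

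Summits of member peaks more than 1000 bp from any start were searched in the same way, in windows of 200 bp. Among the 53 shared GFP+ summits of the members, 12 windows held the GATA word (22.6%, Wilson 95% interval 13.5 to 35.5%), against 10.5% of all shared distal GFP+ summits. The E-box was in 14 (26.4%, 16.4 to 39.6%, against 20.7%), the TEAD word in 9 (17.0%, 9.20 to 29.2%, against 14.4%), the ETS word in 4 (7.55%, 2.97 to 17.9%, against 6.89%) and the MEF2 word in 2 (3.77%, 1.04 to 12.8%, against 5.11%). Among the 28 distal GFP- summits without a GFP+ counterpart, 2 held the GATA word (7.14%, 1.98 to 22.6%), 9 the E-box (32.1%, 17.9 to 50.7%) and 5 the AP-1 word (17.9%, 7.88 to 35.6%). Over all 21291 such GFP- summits the shares were 10.2%, 29.1% and 15.1%, each within the members' interval. Of the 8 words, the GATA word alone had a share over all shared distal GFP+ summits that lay outside the interval of the 53 member summits. It was not particular to GFP+, as 13 of the 52 shared GFP- summits of the members held it (25%, 15.2 to 38.2%, against 10.5%). The median GC content was 48% in the 53 member windows and 51.5% over all shared distal GFP+ windows. The shares were not matched for GC content. The intervals cover counting error only, and windows of 1 gene are not independent.

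Upstream of the starts, GFP- nuclei had 22 peaks, of which 18 were shared (81.8%, 61.5 to 92.7%, against 75.2% over all genes), and GFP+ nuclei had 20, of which 18 were shared (90%, 69.9 to 97.2%, against 88.5%). In each list, 5 of them lay at the start of another gene. *Jup* had the most, 8 in GFP- and 10 in GFP+. Its highest, at ranks 98.1 and 95.6, covered the starts of *P3h4* and *Fkbp10*, and the next, 4744 bp before the *Jup* start at ranks 86.3 and 83.3, lay in intergenic DNA. *Jup* also had a GFP+ peak with no GFP- counterpart, 1832 bp before its start at rank 45.6, which ranked highest of the 3 member peaks found in GFP+ only. The remaining ones were a peak in *Fkbp10*, 19008 bp before the *Jup* start (rank 5.87), and 1 in *Ctnna3*, 710996 bp after the start (rank 2.54).

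*Dsp* had an intergenic region 2753 bp before its start at ranks 87.3 and 83.7, and *Dsg2* had one 5131 bp before its start at ranks 82.1 and 79.9. *Dsg2* also had the highest ranked upstream peak found in GFP- only, 3232 bp before its start at rank 40.8. *Pkp2* had a single upstream region, 11136 bp before the start, at ranks 48.7 and 53.2. *Vcl* had a pair of upstream regions that ranked higher in GFP+, 44124 bp (39.5 and 49.4) and 37204 bp (29.4 and 49.2) before the start. For *Cdh2* the upstream regions lay in or at the start of the noncoding gene *Gm15328*, and for *Ctnna3* the regions in both lists lay at starts of *Dnajc12*. *Dsc2* had none in either list.

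The other genes of the intercalated disc mostly had start peaks in both lists, with a wider spread of rank differences than the members. Of 30 such genes, 26 had a start peak in both lists and 4 (*Tjp1*, *Tln2*, *Ctnnb1* and *Ank3*) had none where the gene record begins. Counting all annotated transcript starts, 30 of 30 had one in both lists. The median rank difference of the 26 was -0.45 points, from -10.2 to 9.14, with an SD over genes of 3.95, against 1.37 for the members. In GFP+, 8 of the 26 were higher and 18 lower. Within 5 points lay 20 of the 26, beside 75.5% of all genes with a start peak in either list. Counting all transcript starts, *Tln2*, a talin, was lower in GFP+ by more than 20 points (rank 54.8 in GFP-, 18.6 in GFP+).

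The desmosome genes that serve stratified epithelium stood apart. Of 12 such genes, 10 had no start peak in either list, among them the desmogleins *Dsg1a*, *Dsg1b*, *Dsg1c*, *Dsg3* and *Dsg4* and the desmocollins *Dsc1* and *Dsc3*. The same cadherin cluster holds *Dsg2* and *Dsc2*, so that in these lists it had start peaks at the heart members alone among the 9 desmosomal cadherin genes searched. *Ppl*, which encodes periplakin, had a start peak at rank 91.5 in GFP- and 54.1 in GFP+, and *Evpl*, which encodes envoplakin, had one in GFP- only, at rank 24.8.

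Endothelial genes, of junctions and of other kinds, went the other way as a list. *Cdh5*, *Pecam1*, *Tie1*, *Egfl7* and *Emcn* are also among the endothelial markers given below. Of the 14 genes, 8 had a start peak in GFP- and 13 in GFP+, with a median rank difference of 16.2 points. With all transcript starts counted, 11 had one in GFP- and 14 in GFP+, and the median difference was 35.2 points. At the record's start, 11 of 13 genes were higher in GFP+ and 2 lower, and 3 of the 13 differed by at most 5 points. The junction genes *Jam2* (rank 89.9 in GFP-, 91.7 in GFP+) and *Jam3* (78.9 and 76.1) were among these 3. *Cdh5* had a rank of 18 in GFP- and 85.3 in GFP+. *Egfl7* (rank 93.0), *Cldn5*, the main claudin of endothelial tight junctions (87.9), and *Emcn* (61.7) had a peak at the record's start in GFP+ only, and *Tie1* ranked 48.3 in GFP- and 87.9 in GFP+. Over all transcript starts, *Egfl7* also had a GFP- peak, of rank 72.6, against 98.7 for GFP+. *Tek*, the angiopoietin receptor, ranked lower in GFP+ (54.1, against 81.1 in GFP-).

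**Figure D5:**
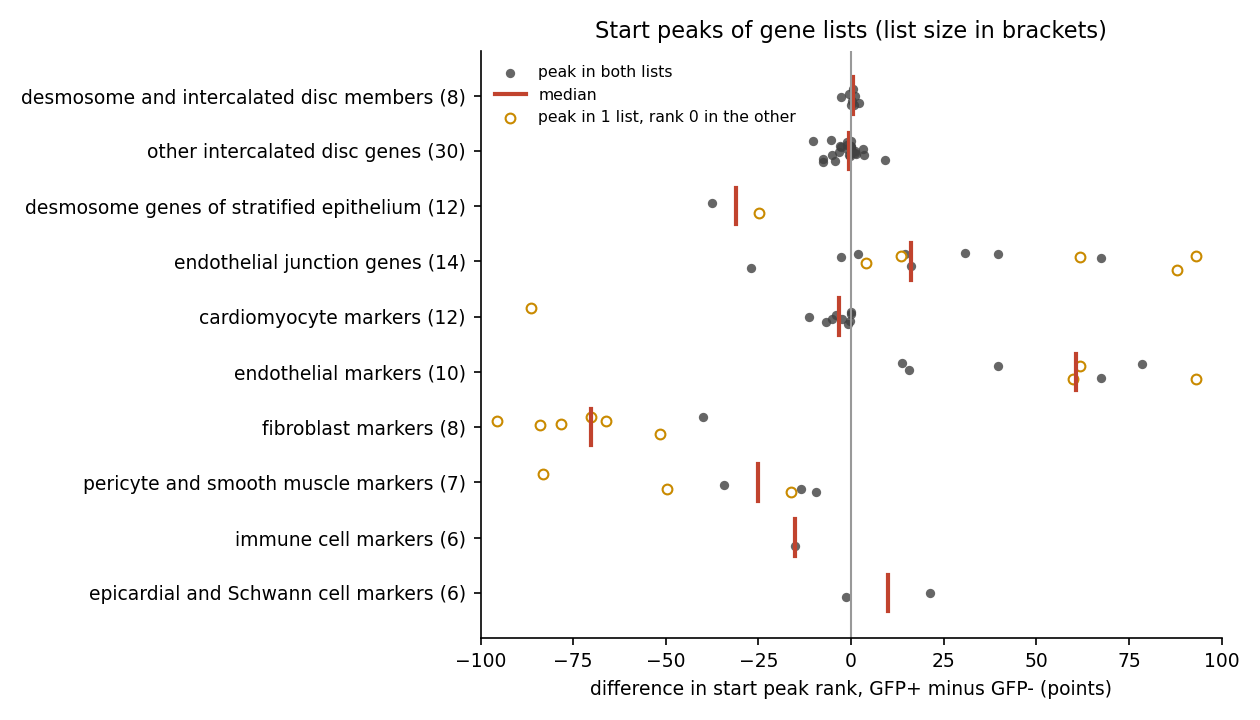
Difference in start peak rank, GFP+ minus GFP-, in points, for each gene of 10 lists with a start peak in either population. Filled points have a peak in both lists, open points in 1 list with rank 0 in the other, and red bars are medians; the 8 members lie between -2.64 and 2.0.

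Marker genes of the cell types in each population are given beside these values. Of 12 cardiomyocyte markers, 10 had a start peak in GFP- and 9 in GFP+, with a median difference of -3.35 points and *Myl3* (rank 86.5) in GFP- only. With all transcript starts counted, 11 had one in each list, *Myl3* among them (90.2 in GFP- and 89.4 in GFP+). Of 10 endothelial markers, 5 had one in GFP- and 8 in GFP+, with a median difference of 60.8. Of 8 fibroblast markers, 7 had one in GFP- and 1 in GFP+, with a median of -70.1. *Col1a1*, *Tcf21*, *Col1a2*, *Pdgfra*, *Dcn* and *Dpt* had none in GFP+ there, and with all transcript starts counted 3 of the 8 had one in GFP+. Of 7 pericyte and smooth muscle markers, 6 had one in GFP- and 3 in GFP+, with *Pdgfrb*, *Notch3* and *Rgs5* in GFP- only. Of 6 immune markers, 1 had a start peak in each list, and of 6 epicardial and Schwann cell markers, 2 had one in each list, *Wt1* at rank 61.8 in GFP- and 83.0 in GFP+. Cardiomyocyte markers thus had start peaks in the GFP+ list as the members did, and most of them, like most genes with a start peak, ranked lower there. Of the 10 with a start peak in either list, 9 were lower in GFP+ (8 of 11 over all transcript starts). Of the members 3 of 8 were lower, and of all genes 9001 of 12577 (9727 of 13624 over all transcript starts). The part that cardiomyocyte nuclei may have in the start peaks of either group was not tested.

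For each member, the protein-coding gene with the most similar pattern was sought over 4 values, the highest start rank over all transcript starts and the percent of the body covered in each list, among 12691 genes. These were *Gid8* for *Dsp*, *Trim72* for *Pkp2*, *Frem2* for *Dsg2*, *Cyb5r1* for *Dsc2*, *Rilp* for *Jup*, *Ebf3* for *Cdh2*, *Sbno1* for *Ctnna3* and *Cblb* for *Vcl*. The Euclidean distance was smallest for *Sbno1* (0.238) and largest for *Frem2* (1.15). For *Trim72*, which encodes a membrane repair protein of striated muscle, the ranks were 89.99 in GFP- and 89.4 in GFP+ and the coverage 8.04% and 8.02%, beside 89.2, 89.9, 7.86% and 8.29% for *Pkp2*. No member was the nearest gene of another.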

How the data were processed

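ATAC-Seq peaks of 2 GFP- and 2 GFP+ libraries were analysed. The authors used fastp for trimming, Bowtie2 for mapping to mm10, SAMtools for filtering and Picard against duplicates. They brought the libraries to an equal number of reads and ran Genrich in ATAC mode on both replicates of a population at the same time, without mitochondrial, Y-linked and blacklisted reads. In the deposited lists, the area is a signal summed over the peak, and no peak had an area below a floor of 200. The deposited -log10 p-value refers to the summit, and the score that the authors' caller gives, which stops at 1000, was not used. Read counts and separate replicates are not analysed here, the depth behind each peak is unknown, and no test was made.

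Ranks, overlaps (bedtools 2.31.1), coverage and word matches were computed from the lists, GENCODE M21 and GRCm38.p6, with Python 3.11.15, numpy 2.4.6, pandas 2.3.3, scipy 1.17.1 and matplotlib 3.10.9. A gene with a start peak in 1 list received rank 0 in the other. The overlap, rank and coverage steps were tested on simulated data. A peak at a start that reaches past the first 1000 bp also counts as a body peak. The members, lists and words were chosen with earlier results of these data known. Named are all members with their start peaks, their highest ranked body and upstream peaks and highest ranked peak in 1 list only, and up to 5 genes of each other list with a start peak in 1 list or a difference over 20 points; further peaks and genes were named after their values were seen. Alternatives changed the start window, start definition, ranking measure, list length, overlap and upstream distance. The sequences before the starts of the remaining members are not reported here.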

Additional observations from a re-analysis of the deposited data

How the results depend on the processing

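The start peaks, the shares of shared peaks and the coverage were recomputed under the settings that bear on each, 13 in all, 9 planned and 4 chosen after seeing the data (start peaks left out of the bodies, *Ctnna3* left out, peaks at starts of other genes left out, and start peaks counted only in the upper part of their list). The region differences, word shares and nearest genes were not recomputed. All 8 members had a start peak in both lists under each setting that bears on it. The median start rank difference stayed between 0.09 (ranking by the summit -log10 p) and 1.12 points (GFP- list limited to as many peaks as the GFP+ list), and in that last setting the median over all genes was 0.42. For single members, 11 of 48 recomputed differences moved by more than the SD over the members. Ranked by area per bp, they were -9.31 for *Cdh2*, -1.99 for *Dsg2*, 2.05 for *Vcl*, 3.45 for *Jup* and 4.70 for *Pkp2*, and by the summit -log10 p, -5.23 for *Cdh2* and -2.98 for *Dsc2*. With the limited GFP- list they were 6.39 for *Dsg2*, 4.07 for *Dsc2* and 3.01 for *Pkp2*, with 6 members higher and 2 lower, and with the strongest 65% of each list -4.07 for *Cdh2*. The signs of *Dsc2*, *Dsg2* and *Vcl*, and those of *Dsp*, *Jup* and *Ctnna3*, which were within 1 point of 0 by area, thus depend on the ranking measure. The share of GFP+ body peaks that were shared, 98%, moved to 82.4% when the overlap had to reach 50% of both peaks (71.8% over all genes), to 88.2% with the limited GFP- list (78.0%), and to 100% without *Ctnna3*. For the 50% overlap the members' interval was 69.7 to 90.4%, and for the limited list 76.6 to 94.5%. Each covers its share over all genes. No paired analysis was possible because each list was called from both replicates together, and leaving out a replicate was not run for the same reason. For the other settings, the shares stayed within the interval given in the report and the coverage moved by less than its spread over the members.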
